A study of Mus musculus with 26 samples.

Results

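Glutathione transferases are enzymes that join the thiol tripeptide glutathione to reactive, fat-loving chemicals so that a cell can export them. They fall into soluble classes named by Greek letters (alpha, mu, pi, omega, theta and others), a kappa class found in mitochondria and peroxisomes, and a separate membrane-bound (microsomal) family. In lung they are known from the airway lining, above all club cells, and from alveolar cells, where they deal with inhaled toxicants and with the breakdown products of oxidised lipids. The genes described here are 10 named members of this family: Gsta3 and Gsta4 (alpha), Gstm1, Gstm2 and Gstm5 (mu), Gstp1 (pi), Gsto1 (omega), Gstt1 (theta), Gstk1 (kappa) and Mgst1 (microsomal). They are 10 of the 22950 genes and other transcripts tested on the array. All 10 were found through RefSeq accessions, by 16 probes, and each of the 25 animals had all 16 well above background. The 10 were picked with their values in these same lungs already known. Their differences from control are therefore given as descriptions, with no p-value printed, and support nothing by themselves. That holds also for the word called, defined below by a limit on the adjusted p-value.

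RNA was measured in whole lung of MutaMouse mice, a strain with a transgene used to score mutations, aged about 12 weeks. Multiwalled carbon nanotubes suspended in mouse serum were instilled into the trachea weekly for 4 weeks, and lungs were collected 56 days later. Beside the control group, the material NM-401 was given at 42.7 µg per mouse (NM-401 low) or 128 µg (NM-401 high), and Mitsui XNRi-7 at the same amounts (Mitsui low and Mitsui high), with 5 animals in each group. Whether an amount is that of 1 instillation or of all of them is not stated. The labels conflict over the controls, named as vehicle controls in one place and as gavaged with olive oil in another, and over sex, given as female for each sample and as male for the study. Each value is a log2 ratio of the animal's lung RNA, in the Cy5 dye, over a universal mouse reference RNA, in the Cy3 dye, so positive values mean more signal in lung than in the reference. As a check of the tissue, all 6 lung marker genes gave signal above background in each of the 25 animals, among them Sftpc at 7.40 to 8.33.

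The library labelled NM-401 high animal 2 went against its sex label. In it both probes of Xist, the RNA made from the silenced X chromosome of females, were not above background (-3.04 and -1.41), while the other 24 animals lay at -0.28 to 0.77 and at 0.09 to 0.93. The Y-linked genes Ddx3y and Kdm5d were above background in 0 animals, this one included. Eif2s3y, another Y-linked gene, was above background in 22 animals, this one among them (-1.96, the others -2.41 to -0.84), and each of 2 Uty probes was so in 1 other animal. This library also had the highest mean level of club cell markers of its group (5.70, the others 4.77 to 5.04) and of adipocyte markers (4.98, the others 1.01 to 1.62). The NM-401 high differences of the members, and the counts of genes called in each list, are given with this animal and then without it.

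Promoters are shown for 4 of the genes: Gsta3, which fell most, its mu-class companions Gstm1 and Gstm2, and Mgst1, which was not called in any exposure. They are RefSeq windows on GRCm38.p6 that run 5′ to 3′ on the gene's own strand, at chr1:21240335-21240634 (plus strand, Gsta3), chr3:108017769-108018068 (minus strand, Gstm1), chr3:107986371-107986670 (minus strand, Gstm2) and chr6:138140277-138140576 (plus strand, Mgst1). Gstm1 and Mgst1 each have 2 windows, of which the one with a match is shown. Capitals mark matches, on either strand, to TGACNNNGC, the core of the antioxidant response element to which the transcription factor NRF2 binds, or to TATAAA, the TATA box; the 2 patterns do not overlap.
Gsta3: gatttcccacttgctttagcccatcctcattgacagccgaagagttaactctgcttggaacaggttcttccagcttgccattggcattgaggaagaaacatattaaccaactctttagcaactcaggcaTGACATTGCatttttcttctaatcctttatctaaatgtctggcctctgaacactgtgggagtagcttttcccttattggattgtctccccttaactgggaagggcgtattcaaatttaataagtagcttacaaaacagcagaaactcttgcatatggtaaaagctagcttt
Gstm1: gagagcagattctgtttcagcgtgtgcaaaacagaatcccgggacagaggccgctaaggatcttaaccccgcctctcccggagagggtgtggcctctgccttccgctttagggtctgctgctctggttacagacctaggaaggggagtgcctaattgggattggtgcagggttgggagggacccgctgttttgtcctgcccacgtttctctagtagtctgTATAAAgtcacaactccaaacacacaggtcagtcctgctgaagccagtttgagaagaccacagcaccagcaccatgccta
Gstm2: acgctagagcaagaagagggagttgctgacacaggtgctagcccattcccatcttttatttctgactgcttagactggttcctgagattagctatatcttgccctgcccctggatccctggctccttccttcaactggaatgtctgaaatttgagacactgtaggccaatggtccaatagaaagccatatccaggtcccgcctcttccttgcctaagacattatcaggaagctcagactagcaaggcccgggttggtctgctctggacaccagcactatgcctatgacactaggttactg
Mgst1: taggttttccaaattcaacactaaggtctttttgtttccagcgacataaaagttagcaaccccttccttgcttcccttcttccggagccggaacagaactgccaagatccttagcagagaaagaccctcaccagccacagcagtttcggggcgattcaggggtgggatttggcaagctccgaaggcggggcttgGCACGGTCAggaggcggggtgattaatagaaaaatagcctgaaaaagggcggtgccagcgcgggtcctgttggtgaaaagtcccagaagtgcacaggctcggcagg
The antioxidant core stands 121 bases before the start in Gsta3 and, in reverse orientation, 56 bases before it in Mgst1. The TATA box stands 30 bases before the start in Gstm1, and Gstm2 holds neither pattern in this window. Of the 11 windows of the 9 members that have one, 3 hold the antioxidant core (1 each of Gsta3, Gstm5 and Mgst1), against 12.4% of all 32851 windows of this length. The letters TATAAA are in 2 of the 11 (1 each of Gstm1 and Gstm5), against 13.6%. In Gstm5 they lie 40 bases after the start, not before it. Of the 3 members with the core, Gsta3 was called lower in 3 exposures, Gstm5 in NM-401 high lungs, and Mgst1 in none. Any bearing of the core on these differences was not tested. A match is a string of letters, not a measured binding site.

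The members that were called were lower in exposed lungs, and 0 of 10 were called higher in any exposure. A gene is called here when its adjusted p-value over all 22950 features is under 0.05. In NM-401 high lungs 6 of 10 members were called lower: Gsta3, Gstm1, Gstm2, Gstm5, Gstp1 and Gstk1. Of all features 16.4% were called lower and 18.4% higher in that comparison, but because the members were chosen on it, nothing is read from these shares. Mitsui low and Mitsui high lungs each had 4 called lower (10.4% and 11% of all features; 10.6% and 12.7% were called higher), the same 4 in both: Gsta3, Gstm1, Gstm2 and Gstk1. NM-401 low lungs had 3 called lower (8% of all features; 8.95% were called higher): Gstm1, Gstm2 and Gstk1. The values of exposed and control animals did not overlap for 1, 5, 3 and 3 members in NM-401 low, NM-401 high, the low Mitsui group and the high Mitsui group, beside 11.6%, 22.5%, 16.1% and 14.6% of all features. In the same order, the members' median log2 difference was -0.23, -0.36, -0.18 and -0.21, beside a median over all features of 0.00 (size under 0.005) in each. These exposures share the 5 control animals. Without NM-401 high animal 2, 7 members were called lower in NM-401 high lungs, the added one being Gsta4. With each array centred on its median in place of the intensity-dependent loess adjustment, 0 members were called in any exposure. The differences under that setting were -1.30 to -0.66 for Gsta3, -0.79 to -0.62 for Gstm1, -0.67 to -0.56 for Gstm2 and -0.58 to -0.25 for Gstk1, with SEs of 0.45, 0.43, 0.38 and 0.36. A member was called higher with all animals under some other settings: Gsto1 in NM-401 high lungs with the scanner's log ratios (0.66) and with probes above background in every animal (0.56), and Mgst1 in Mitsui high lungs without background correction, with probes above background in every animal and with the replicate number as a block (0.32 in each).

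**Figure D1:**
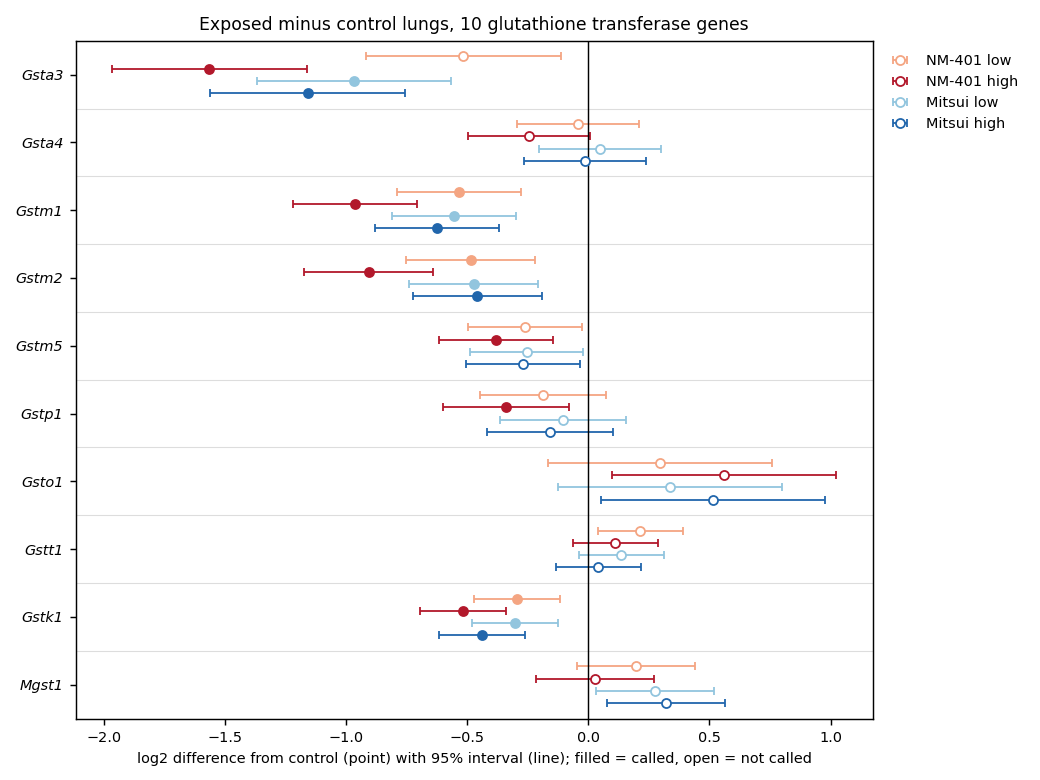
Log2 difference from control (x axis) for the 10 genes (y axis) in each of the 4 exposures (colours); points are group differences over 5 animals a group, lines are 95% intervals, and filled points were called. Gsta3, Gstm1, Gstm2 and Gstk1 lie to the left of 0 in all 4 exposures, while Gsto1 and Gstt1 lie to the right in all 4 and are open (with median centring in place of loess Gstt1 lies at -0.10 and -0.16 in the Mitsui groups).

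Of the alpha class, Gsta3 is the enzyme known in mice for conjugating the activated form of aflatoxin. Its values in the 5 controls were 4.90, 4.95, 4.86, 4.60 and 4.78. In NM-401 low lungs they were 4.32, 3.96, 4.42, 4.85 and 3.95, and in NM-401 high lungs 3.21, 3.57, 2.74, 3.89 and 2.86. In Mitsui low lungs they were 4.06, 3.89, 3.84, 3.62 and 3.83, and in Mitsui high lungs 3.77, 3.93, 3.97, 3.51 and 3.11. The control animals lay above every animal of the NM-401 high and both Mitsui groups, while NM-401 low animal 4 lay within the control range. Gsta3 was 33.8% of control in NM-401 high lungs (95% interval 25.6% to 44.6%), a log2 difference of -1.57 ± 0.19 (SE, n = 5 a group) that was -1.64 ± 0.20 without animal 2. It was 51.1% of control in Mitsui low (38.7% to 67.5%) and 44.8% in Mitsui high lungs (33.9% to 59.1%). In NM-401 low lungs it was 69.9% of control (52.9% to 92.3%), which was not called. That log2 difference of -0.52 ± 0.19 was called when NM-401 low animal 4 (-0.65) or NM-401 high animal 4 (-0.52) was left out. This gene has 2 probes, and the other gave -1.36 in NM-401 high lungs.

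Ordered by mean, Gsta3 ran from NM-401 high (3.25) through Mitsui high (3.66), Mitsui low (3.85) and NM-401 low (4.30) to control (4.82). No step between neighbours in that order was called. Between the NM-401 doses, which are further apart, it was called: high minus low was -1.05 ± 0.19, no high animal reached a low animal, 1.15% of all features were called lower in this comparison and the groups did not overlap for 3.69%. Between the Mitsui doses the same step was -0.19 ± 0.19 (95% interval -0.59 to 0.21). The difference between those 2 steps, -0.86 ± 0.28 (-1.43 to -0.29), was not called, as for the other 9 members (0.0305% of all features were).

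Gsta4, the alpha-class enzyme that conjugates hydroxynonenal from oxidised lipid, showed no called difference. Its differences from control (each ± 0.12) were -0.04 and -0.24 at the low and high dose of NM-401, and 0.05 and -0.02 at those of Mitsui XNRi-7. In NM-401 high lungs 4 animals lay at -0.43 to -0.07 and animal 2 at 0.51, while the controls lay at 0.06 to 0.37. Without animal 2 the difference was -0.39 ± 0.10 and was called.

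**Figure D2:**
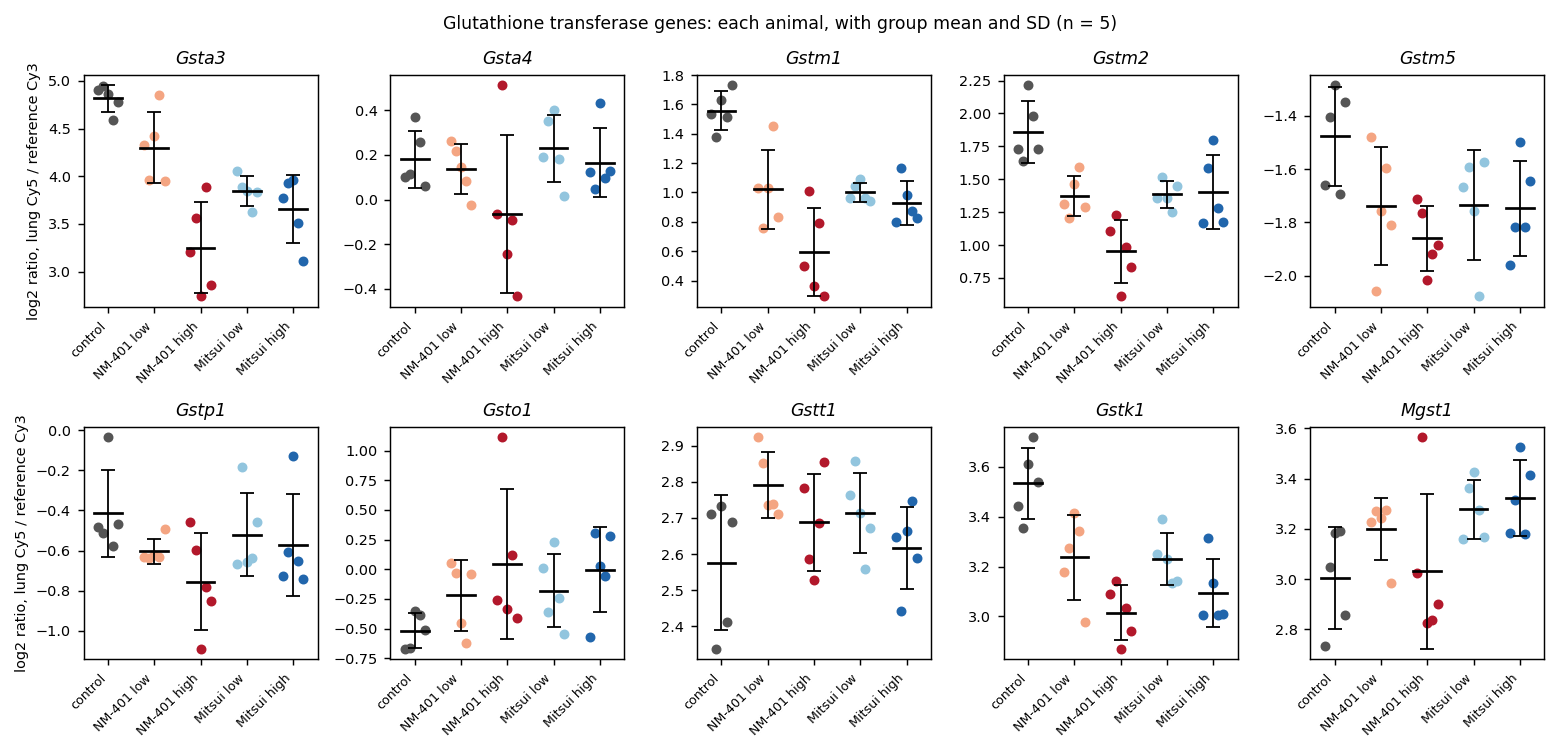
Log2 ratio of lung over reference RNA (y axis, own scale in each panel) for the 10 genes, with 1 point per animal in each of the 5 groups (x axis); bars are the mean and lines the SD (n = 5). Gsta3, Gstm1 and Gstk1 in NM-401 high lungs lie wholly below the controls, and NM-401 high animal 2 stands apart at the top of its group for Gsto1 (1.11) and Mgst1 (3.56).

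The mu class handles a wide range of electrophiles. Of its members here, Gstm1 and Gstm2 were called lower in all 4 exposures and Gstm5 in NM-401 high lungs. Gstm1 read 1.54, 1.38, 1.63, 1.51 and 1.73 in controls. It read 1.03, 0.76, 1.03, 1.46 and 0.83 in NM-401 low lungs, and 0.50, 1.01, 0.36, 0.79 and 0.30 in NM-401 high lungs. In Mitsui low lungs it read 0.97, 1.04, 1.09, 0.96 and 0.94, and in Mitsui high lungs 0.80, 1.17, 0.98, 0.87 and 0.83. Of the 20 exposed animals, NM-401 low animal 4 alone fell inside the control range. Gstm1 fell to 51.2% of control in NM-401 high (42.9% to 61.2%), 64.8% in Mitsui high (54.2% to 77.3%), 68.0% in Mitsui low (56.9% to 81.2%) and 69.0% in NM-401 low lungs (57.8% to 82.3%). Without NM-401 high animal 2, the highest of its group, the log2 difference went from -0.97 ± 0.12 to -1.07 ± 0.12.

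Gstm2 read 1.73, 1.64, 2.22, 1.98 and 1.73 in controls. In NM-401 low lungs it read 1.32, 1.21, 1.46, 1.59 and 1.29, and in NM-401 high lungs 1.104, 1.23, 0.61, 0.98 and 0.83. In Mitsui low lungs it read 1.36, 1.52, 1.36, 1.25 and 1.45, and in Mitsui high lungs 1.16, 1.58, 1.80, 1.28 and 1.17. Mitsui high animal 3 overlapped the controls, and the other 3 exposures did not overlap them at all. Gstm2 fell to 53.3% of control in NM-401 high lungs (44.3% to 64.1%) and to between 71.4% and 72.8% in the other exposures. Without NM-401 high animal 2 its log2 difference there was -0.98 ± 0.13, against -0.91 ± 0.13 with it. Gstm2 has 3 probes and Gstm1 has 2, and every probe of both gave a lower mean in every exposure.

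Gstm5 was called lower in NM-401 high lungs alone, at 76.7% of control (65.2% to 90.3%). Its control animals lay at -1.69 to -1.28 and its NM-401 high animals at -2.02 to -1.71, just apart. The difference was -0.38 ± 0.11, and -0.41 ± 0.12 without animal 2. In the other 3 exposures it was 83.0% to 83.8% of control, which was not called (in Mitsui high lungs it was, at -0.33, without Mitsui high animal 3); this does not show that NM-401 high differs from them, since high minus low NM-401 was -0.12 ± 0.11 and NM-401 high minus Mitsui high was -0.11 ± 0.11.

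Gstp1, the pi-class enzyme that also binds the stress kinase JNK, was called lower in NM-401 high lungs at 78.9% of control (65.9% to 94.5%). Controls read -0.48, -0.51, -0.04, -0.58 and -0.47, and NM-401 high animals -0.46, -0.60, -1.09, -0.78 and -0.85. The groups overlapped. The difference of -0.34 ± 0.13 was -0.38 ± 0.13 without animal 2. It lost its call when control animal 3 (-0.25), NM-401 high animal 3 (-0.26), animal 4 (-0.33) or animal 5 (-0.32) was left out. With all animals it also lost its call with no filter on dim probes and with the replicate number as a block, at -0.34 in both. In the other exposures the differences were -0.19, -0.11 and -0.16, each ± 0.13 and not called.

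Gstk1, the transferase of mitochondria and peroxisomes, was lower in all 4 exposures by smaller amounts. Controls read 3.44, 3.36, 3.61, 3.72 and 3.54. NM-401 high animals read 3.09, 3.14, 2.87, 3.03 and 2.94, and Mitsui high animals 3.01, 3.32, 3.13, 3.01 and 3.01. Neither of these groups reached the lowest control. Gstk1 fell to 69.8% of control in NM-401 high (61.7% to 79.0%) and 73.8% in Mitsui high lungs (65.2% to 83.4%). In NM-401 low (81.5%) and Mitsui low lungs (81.0%) the groups overlapped, and the NM-401 low call was lost without control animal 4 (-0.25) or NM-401 low animal 5 (-0.23), from -0.30 with all animals. Without NM-401 high animal 2 the NM-401 high difference was -0.55 ± 0.09, against -0.52 ± 0.09 with it.

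Gsto1, Mgst1 and Gstt1 were not called in any exposure either. Gsto1, the omega-class enzyme that reduces dehydroascorbate and removes glutathione from proteins, had differences of 0.30 and 0.56 with NM-401 at the low and high dose and of 0.34 and 0.51 with Mitsui XNRi-7 (each ± 0.22). Controls read -0.67, -0.66, -0.36, -0.38 and -0.51, and NM-401 high animals -0.25, 1.11, -0.33, 0.12 and -0.41. Animal 2, the library at odds with its label, stood far above the rest, and without it the NM-401 high difference was 0.29 ± 0.18. Left out in turn, NM-401 high animal 1 (0.64), animal 3 (0.66), animal 5 (0.68) or Mitsui high animal 1 (0.56) made the NM-401 high difference called. In Mitsui high lungs the values were -0.57, 0.30, 0.03, -0.06 and 0.28. There, 4 of 5 animals lay above every control, and the difference was called without Mitsui high animal 1 (0.66) or NM-401 high animal 2 (0.51 ± 0.17).

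Mgst1, a membrane-bound transferase with peroxidase activity, had differences of 0.20, 0.03, 0.27 and 0.32 (each ± 0.12) in the same order. Its controls lay at 2.73 to 3.19, its Mitsui high animals at 3.18 to 3.52 and 4 of its NM-401 high animals at 2.82 to 3.03, with animal 2 at 3.56. Without animal 2 the NM-401 high difference was -0.11 ± 0.10. The Mitsui high difference was not called with all animals, apart from the 3 settings named above, and was called in 7 of the 25 fits that left out 1 animal (control 3 or 4, NM-401 low 5, NM-401 high 2 or 3, Mitsui high 1 or 4), all 25 giving 0.25 to 0.37. Without NM-401 high animal 2 the Mitsui low difference was called as well, at 0.27. Gstt1, the theta-class enzyme that acts on small halogenated molecules, had differences of 0.22, 0.11, 0.14 and 0.04 (each ± 0.08); with median centring in place of loess the last 2 were -0.10 and -0.16. Without NM-401 high animal 2 the NM-401 high difference was 0.14 ± 0.09, also not called. With all animals its 95% intervals ran from -0.13 to 0.39 over the 4 exposures.

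Between doses and between materials few differences among the members were called. NM-401 high against low gave Gsta3 alone, and 3.84% of all features. With NM-401 high animal 2 left out, Gsta4 (-0.34 ± 0.10), Gstm1 (-0.53 ± 0.12) and Gstm2 (-0.49 ± 0.13) were called too. Leaving out NM-401 low animal 5 gave 3 members, and leaving out NM-401 low animal 2, NM-401 high animal 4, Mitsui high animal 2 or Mitsui high animal 3 gave 2. NM-401 high against Mitsui high gave 0 of 10 members (0.793% of all features), and without animal 2 gave Gsta4 (-0.37), Gstm1 (-0.44), Gstm2 (-0.52) and Mgst1 (-0.42), all lower with NM-401; without Mitsui high animal 5 it gave 1, Gstm2. Mitsui high against low, and NM-401 low against Mitsui low, gave 0 members in limma's fit and 0% of all features (0 of 22950, with 1244 and 1287 features at an unadjusted p under 0.05). The size of these steps was bounded for each member: for Gstm1, Mitsui high minus low was -0.07 with a 95% interval of -0.33 to 0.19.

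The slide, which carries several arrays, was a possible source of spread. Computed within each slide that held both groups, the NM-401 high difference was negative on 3 of 3 slides for Gsta3 (-1.69 to -1.22), Gstm1 (-1.13 to -0.95), Gstm2 (-1.11 to -0.81) and Gstk1 (-0.73 to -0.49). On 4 of 4 slides Gstm1, Gstm2 and Gstk1 were lower in NM-401 low, Mitsui low and Mitsui high lungs as well. Gsta3 was lower on 3 of 4 slides in NM-401 low lungs, with 0.01 on the other slide. Each of these differences rests on 1 or 2 arrays of a group. Mitsui low animal 5 had an array on slide 3 and was the only Mitsui low animal on slide 4. Those slides are therefore not separate animals for that group.

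Another 21 genes of the family were listed, of which 17 were measured. They too were listed with earlier results on these lungs known. Their counts and differences are therefore descriptions, with no p-value printed. In NM-401 high lungs 7 of the 17 were called lower and 3 higher, beside 16.4% and 18.4% of all features; their median log2 difference was -0.13. Without animal 2 the counts were 9 and 3 and the median was -0.33. NM-401 low lungs had 2 lower and 2 higher (8% and 8.95% of all features), Mitsui low 2 lower and 3 higher (10.4% and 10.6%), and Mitsui high 5 lower and 2 higher (11% and 12.7%). The counts of 2 are close to those shares of 17 genes. Every count of lower genes here includes Gsta2, and every count of higher genes includes Hpgds. Both passed the background filter only through groups where they were high, as described below. These counts depended on single animals. The NM-401 low total of 4 was 2 without control animal 1 or 4 or NM-401 low animal 2 or 3, and 7 without NM-401 low animal 4. The Mitsui low total of 5 was 3 without control animal 1 or 5 or Mitsui low animal 4 or 5, and 8 without NM-401 high animal 2. The Mitsui high total of 7 was 4 without Mitsui high animal 1 and 3 without animal 4. The remaining mu-class genes were among those that fell in NM-401 high lungs. Gstm4 fell by 0.73 ± 0.16, Gstm3 by 0.69 ± 0.15, Gstm6 by 0.61 ± 0.18 and Gstm7 by 0.39 ± 0.10. Gstm7 was dim: all 5 controls had it well above background, but only 3 of 5 NM-401 high animals did. By RefSeq, Gstm5, Gstm7, Gstm6, Gstm3, Gstm2, Gstm1 and Gstm4 lie next to each other, in that order, on chromosome 3, and all 7 were called lower in NM-401 high lungs. Their sequences are alike, and how far a probe for one also reads RNA of another is not known, so the 7 values may not be independent.

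The alpha-class gene Gsta2 fell in all 4 exposures. It read 0.10, 0.22, 0.12, 0.14 and -0.03 in controls and -0.29, -0.31, -0.53, -0.31 and -0.36 in NM-401 high lungs, where it was not well above background in any animal. Its log2 ratio there fell by 0.47 ± 0.07. In the Cy5 channel alone, a scale of its own that is open to dye bias since no dyes were swapped, the control signal was at least 1.41-fold higher. In control lungs 4 of 5 animals had it well above background, in NM-401 low lungs 1, and in each Mitsui group 0. The gene passed the background filter only through the controls, where it was high. Its falls are therefore descriptions, given with no p-value.

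The pi-class genes moved in opposite directions. Gstp1, Gstp2 and Gstp3 lie next to each other on chromosome 19. Gstp2 fell by 0.44 ± 0.08 in NM-401 high and by 0.32 ± 0.08 in Mitsui high lungs, both called. Gstp3 read 0.91, 0.93, 1.26, 1.17 and 1.08 in controls and 1.91, 2.03, 2.23, 1.91 and 2.54 in NM-401 high lungs, with no overlap. It rose by 1.05 ± 0.18 there and by 0.70, 0.54 and 0.61 in NM-401 low, Mitsui low and Mitsui high lungs. As with the mu class, reading of one pi-class RNA by the probe of another was not tested.

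Hpgds, the sigma-class transferase that makes prostaglandin D2 in mast cells and some macrophages, rose in all 4 exposures. It was not well above background in any control (-0.48, -0.44, -0.44, -0.67 and -0.26) and was so in all 5 NM-401 high animals (0.31, 0.10, 0.57, 0.31 and 0.80). Its log2 ratio rose by 0.87 ± 0.13 in NM-401 high and by 0.51 ± 0.13 in Mitsui high lungs. The gene passed the background filter only through exposed groups, where it was high. Its rises are therefore descriptions, given with no p-value. In the Cy5 channel alone the signal was at least 1.89-fold and at least 1.35-fold higher. Among the membrane-bound relatives, Mgst3 fell by 0.36 ± 0.13 in NM-401 high lungs and Ptges, a prostaglandin E synthase, rose by 0.16 ± 0.05, both called. Gstt3 rose in Mitsui low lungs by 0.29 ± 0.09, which was called. The other 6 measured genes (Gstt2, Gsto2, Gstz1, Gstcd, Mgst2 and Ltc4s) were not called in any exposure.

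**Figure D3:**
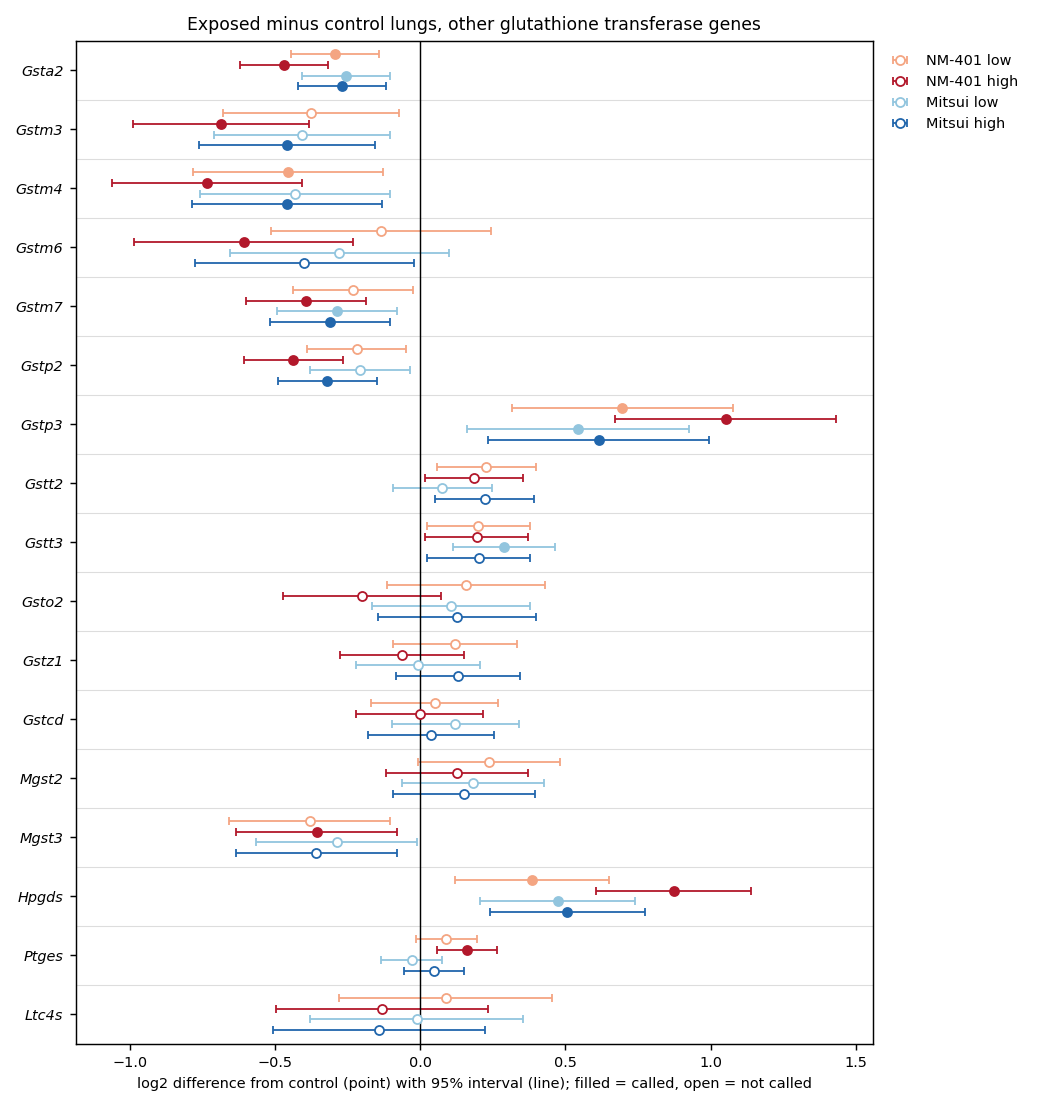
Log2 difference from control (x axis) for the 17 other measured family genes (y axis) in each of the 4 exposures (colours); points are group differences over 5 animals a group, lines are 95% intervals, and filled points were called. The mu-class genes lie left of 0 in all 4 exposures, and Gstp3 and Hpgds are filled and right of 0 in all 4.

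Among genes that supply and recycle glutathione, called rises outnumbered falls. Of 19 genes for its synthesis, uptake and turnover, 8 rose and 4 fell in NM-401 high lungs (8 and 3 without animal 2), beside 18.4% and 16.4% of all features. The 4 falls are near that share. Gclc, the catalytic subunit of the rate-limiting enzyme of glutathione synthesis, rose by 0.96 ± 0.13 and by 0.81, 0.83 and 0.71 in NM-401 low, Mitsui low and Mitsui high lungs. The peptidase genes Dpep2 (1.20 ± 0.14) and Lap3 (1.02 ± 0.10) rose, while Dpep1 (-0.94 ± 0.16), the exporter Abcc3 (-0.35 ± 0.06) and Ggt1 (-0.28 ± 0.10), which splits extracellular glutathione, fell. In the other exposures the counts were 5 higher and 0 lower in NM-401 low, 7 and 2 in Mitsui low, and 8 and 2 in Mitsui high lungs.

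Of 23 genes of glutathione peroxidases, glutaredoxins and the thioredoxin system, 9 rose and 1 fell in NM-401 high lungs, with or without animal 2, beside the same 18.4% and 16.4%. Glrx (1.05 ± 0.15), which strips glutathione from proteins, and the peroxidase genes Prdx1 (0.98 ± 0.13) and Gpx1 (0.81 ± 0.10) rose. The 1 that fell was Prdx6 (-0.84 ± 0.08), a peroxidase that uses glutathione brought to it by the pi-class transferase. It fell in NM-401 low, Mitsui low and Mitsui high lungs too, by 0.50, 0.49 and 0.63, the 1 fall in each, beside 8, 8 and 7 rises.

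Of 29 regulators and targets of NRF2 outside the transferases, 13 rose and 4 fell in NM-401 high lungs (12 and 5 without animal 2), beside 18.4% and 16.4% of all features; the falls are near that share. Hmox1 (1.47 ± 0.12), which degrades haem, Akr1b8 (1.42 ± 0.14), an aldo-keto reductase, and Ftl1 (1.16 ± 0.22), the ferritin light chain, rose in all 4 exposures. Mafk (-0.42 ± 0.08), a small Maf protein that pairs with NRF2 on DNA, Nqo1 (-0.39 ± 0.09), a quinone reductase long used as a marker of NRF2 activity, and the epoxide hydrolase gene Ephx1 (-0.29 ± 0.09) fell. Nqo1 was not called in the other exposures, with differences of -0.01, -0.07 and -0.13 in NM-401 low, Mitsui low and Mitsui high lungs. The counts of rises and falls were 9 and 1 in NM-401 low, 11 and 1 in Mitsui low, and 11 and 1 in Mitsui high lungs. This list shares genes, Gclc among them, with the glutathione synthesis and thioredoxin lists, so their counts are not separate.

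Of 26 other measured enzymes and regulators of drug metabolism, 16 fell and 1 rose in NM-401 high lungs, beside 16.4% and 18.4% of all features, with a median of -0.33. Without animal 2, 18 fell and 0 rose. Among the falls were those of the lung cytochrome P450 gene Cyp4b1 (-1.26 ± 0.16) and the sulfotransferase gene Sult1d1 (-1.17 ± 0.25), and the rise was of Cyp1b1 (0.56 ± 0.19). In NM-401 low, Mitsui low and Mitsui high lungs 5, 6 and 5 fell and 0 rose. Ephx1 is in this list and the NRF2 list, and Cyp4b1 and Cbr2 are among the genes shared with the club cell markers below. The lists named here were chosen with earlier results on these lungs known. Their counts and differences are descriptions, given with no p-value.

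**Figure D4:**
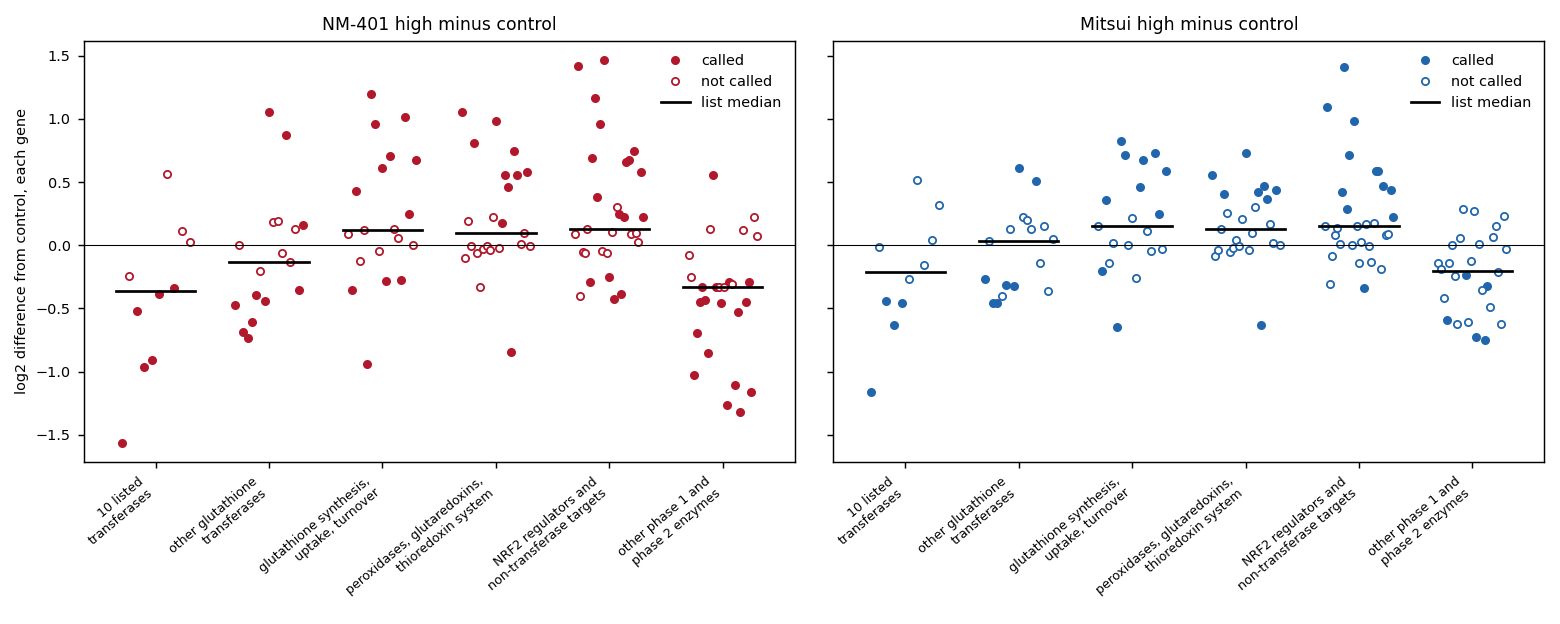
Log2 difference from control (y axis) of each gene in the 10 members and 5 related lists (x axis), in NM-401 high (left) and Mitsui high lungs (right); filled points were called, and the bar is the list's median. The members' median (-0.36 and -0.21) and that of other drug-metabolising enzymes (-0.33 and -0.20) lie below 0, and those of the glutathione synthesis, peroxidase and NRF2 lists above it. Some of the lists share genes.

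Cell type markers differed from control in both directions in NM-401 high lungs, the group described here. These are whole-lung extracts, so fewer cells of a type and less RNA per cell cannot be told apart. The counts of markers that follow stand beside 16.4% of all features called lower and 18.4% higher in NM-401 high lungs. Of 9 club cell markers, 4 were called lower and 2 higher there. Their mean level over the list ran from 4.77 to 5.70 in that group and from 4.73 to 5.31 in controls, with Scgb1a1 at -0.39 ± 0.23 (not called) and Cbr2 at -0.33 ± 0.10 (called). Of 9 alveolar type 1 markers 7 fell and 1 rose, with list means of 3.66 to 3.98 against 4.14 to 4.56, the groups not overlapping, Emp2 at -0.61 ± 0.12 and Pdpn, the rise, at 0.45 ± 0.15. Of 10 alveolar type 2 markers 6 rose and 0 fell, with Sftpc at 0.10 ± 0.14 (not called) and Lamp3 at 0.86 ± 0.11.

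Of 11 macrophage markers 10 rose and 0 fell in NM-401 high lungs, with list means of 3.08 to 3.59 against 1.12 to 1.43 in controls, Cd74 at 0.87 ± 0.13 and Csf1r at 0.51 ± 0.09. Of 10 fibroblast markers 4 fell and 3 rose (means 1.41 to 1.83 against 1.78 to 2.04), Gsn at -1.30 ± 0.16 and Col1a2 at 0.47 ± 0.12. Of 10 endothelial markers 5 fell and 0 rose (means 3.75 to 3.99 against 4.25 to 4.51), Egfl7 at -0.58 ± 0.11 and Vwf at -0.14 ± 0.08 (not called). Of 10 ciliated cell markers 1 fell (Tppp3, -0.48 ± 0.12) and 0 rose (Cfap126, 0.03 ± 0.17, not called). Adipocyte (6 genes), cardiac muscle (10) and hepatocyte (9) markers varied widely between animals: adipocyte means ran from 1.80 to 5.78 in controls alone, and 1 of the 6 fell in NM-401 high lungs with animal 2 in and 5 of the 6 without it. Of the hepatocyte markers 1 rose and 1 fell, with or without animal 2, and of the cardiac muscle markers 1 fell with it and 0 without it. Without animal 2 the club cell counts were 5 lower and 2 higher and 5 alveolar type 2 markers rose, while the alveolar type 1, macrophage, fibroblast, endothelial and ciliated cell counts were as given. In every one of these lists no gene was below background in all animals of a group. The part of these markers in the transferase differences was not tested.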

How the data were processed

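Lung RNA of 25 animals was measured on 26 two-colour Agilent arrays on 4 slides; the 2 arrays of Mitsui low animal 5 were averaged. The deposited scanner files, made with Agilent Feature Extraction 11.0.1.1 per the submitters' processing notes and the file headers, hold spot intensity per channel, a log10 ratio and quality flags (scored 0 or 1), per the file headers. The deposited value table holds log2 ratios that the authors normalised; it ran the same way as the log10 ratios (r 0.876 to 0.909 over probes) with column medians of -0.04 to -0.02, and its exact scaling and centring are unknown. Array-design names can be old; genes were named through RefSeq accessions (27235 of 55681 probes matched).

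From the median intensities, background was corrected by normexp (offset 50) and dyes by loess, with outlier spots (0.461%) dropped. Probes well above background in Cy5 in at least 4 animals of 1 group were kept (30466), and each gene was read by its brightest kept probe, leaving 22950 features. limma 3.58.1 (R 4.3.3) fitted 1 mean per group with empirical Bayes variances, and p-values were adjusted by the Benjamini-Hochberg method over all features; calls need an adjusted p under 0.05. The fit and the calls, but not the background correction or the loess step, were tested on simulated data with independent noise. A gene not well above background in a whole group has only a bound there, taken from the normalised Cy5 channel and so on another scale than the ratios. Replicates are animals.

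The members and gene lists were chosen with earlier results of these data known. Named are all 10 members, any measured relative, the 3 largest called rises and falls of each pathway list in NM-401 high lungs, and the 2 brightest genes of each marker list. As exceptions, hepatocyte, adipocyte and cardiac muscle markers are given as counts only, and 1 of the largest falls in drug metabolism is not reported here. Alternatives covered background correction, ratios, filters, probes, slide, replicate number, repeat array and leaving out each animal. The number of arrays limits the precision.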

Additional observations from a re-analysis of the deposited data

Results flagged for a closer look

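Of the 50 sets of 5 animals (10 genes in 5 groups), 6 held an animal set apart from the other 4 by more than the Dixon limit, which chance alone would give in about 1 set of 20. Gstp1 gave 3 of them. Control animal 3 was highest for Gstp1 at -0.036, NM-401 low animal 5 at -0.49 and Mitsui high animal 3 at -0.13. For Gsta4, Mitsui high animal 3 stood above its group at 0.43. For Mgst1, NM-401 low animal 5 stood below its group at 2.98, and NM-401 high animal 2, the library whose Xist signal goes against its label, stood above its group at 3.56.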

How the results depend on the processing

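Of the 1440 member values computed under 36 alternatives, 0 that were called changed sign, and 22 moved by more than the spread between animals, all under median centring in place of loess. That setting shifted the median of all features by -0.11, 0.17, -0.14 and -0.13 (NM-401 at its low and high dose, then Mitsui XNRi-7 likewise) and raised the median SE from 0.0951 to 0.309. Under it 0 members were called in each exposure and 0 between NM-401 doses, and 0, 3, 0 and 0 of the other transferases; Gsta3 was -0.66, -1.17, -1.14 and -1.30. Members called between NM-401 doses numbered 2 with the scanner's log ratios, 2 with the authors' deposited values, 2 without background correction, 2 with probes above background in every animal and 4 with slide as a block, which also gave 1 for NM-401 high against Mitsui high. Other transferases called in Mitsui low lungs were 2 with scanner ratios, 3 with no filter and 8 with slide as a block, and in NM-401 low lungs 2 with no filter. Leaving out 1 animal gave 2 to 4, 5 to 7, 4 to 5 and 4 to 6 members called in the 4 exposures, 1 to 4 between NM-401 doses, 0 to 4 between the materials at the high dose, and 0 in the other comparisons. For the other transferases it gave 2 to 7, 9 to 12, 3 to 8 and 3 to 9.

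Residuals of animals with the same replicate number correlated at -0.38 to 0.41 (mean 0.01). Pairs with different numbers were not compared, so whether the numbers pair animals is not known. With the replicate block, 3, 5, 4 and 5 members were called. Arrays give no read depth; the members' signals were all above background.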

Other observations

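The genes whose values ran most like those of Gsta3 over the 25 animals, among 14838 features with a symbol, were Ogn (Pearson r 0.95), Gsn (0.95), Enho (0.93), Tgfbr3 (0.93) and Meis1 (0.93). Ogn encodes a small proteoglycan of the extracellular matrix, Gsn an actin-severing protein and Tgfbr3 a co-receptor for TGF-beta. With each group's mean taken out, the correlations were 0.83, 0.81, 0.88, 0.79 and 0.86. All 5 were lower in NM-401 high lungs, from -1.58 ± 0.21 for Ogn to -0.85 ± 0.14 for Meis1. Gsto1 had other companions: Lypd3 (0.89), Atp10b (0.88), Spdef (0.83), the transcription factor of mucous cells, Anxa8 (0.83) and Alox12e (0.82), and with group means taken out these were 0.85, 0.89, 0.79, 0.88 and 0.81. Lypd3, Atp10b and Alox12e were not well above background in any control. The Gsto1 correlations include NM-401 high animal 2, which read 1.11 for Gsto1 while the rest of its group reached at most 0.12. How far they rest on that library was not tested. The points share arrays, reference RNA and normalisation, and the genes were ranked on these values, so the correlations are descriptions.

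Among the members themselves, Gsta3 ran with Gstm1 (r 0.90, and 0.75 with group means taken out). Gstm2 ran with Gstm1 (0.88), Gstk1 (0.85), Gsta3 (0.82) and Gstp1 (0.78). With group means taken out, those of Gstm2 were 0.63, 0.70, 0.58 and 0.77. Gsta4 and Mgst1 gave 0.74, and 0.84 with group means taken out, over 25 animals that include NM-401 high animal 2, the highest of its group for both.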
